A study of Citrullus lanatus with 4 samples.

Results

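Floral buds of the male sterile watermelon line DAH3615-MS were compared with floral buds of the male fertile line DAH3615 across all 19158 genes with at least 1 read in either library, of 23440 genes in the count table. DAH3615-MS is a genic male sterile line that carries the ms locus in the homozygous state (msms) and derives from the ms-1 male sterile source, and DAH3615 is its fertile near-isogenic line (Msms). Both came from 1 greenhouse-grown population that segregated 1:1 for sterility. The DAH3615-MS buds were 3 to 4 mm long and the DAH3615 buds 7 to 8 mm, although both were taken at nodes 22 to 23, 1 day before flowering. The flowers of both lines, used here only to follow the bud differences to the next stage, came from nodes 16 to 17 on the first day of flowering. Each condition was sequenced as 1 library, and how many plants went into a library is not stated in the sources used here. The bud comparison therefore has no replicate check within the sequencing data, and no p-value was computed. Line, bud length and developmental stage change together between these 2 libraries and cannot be told apart within them.

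A stamen ends in an anther, in which pollen grains mature inside a pollen sac lined by the tapetum, a nurse layer that feeds the developing grains and supplies part of their outer wall. Maturing pollen stores transcripts for germination and tube growth, among them pectin-modifying enzymes, cell wall proteins and regulators of the actin cytoskeleton, which lets the tube extend quickly through the style. In genic male sterile plants a nuclear mutation stops this program, while the other floral organs usually form. In RNA from whole buds, fewer cells of a type and less RNA per cell cannot be told apart.

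The qRT-PCR primers of 3 of the study's assays are shown because genes annotated with the same UniProt ID as the assay followed the main pattern. They are printed 5′ to 3′. By that ID, the LIM domain protein assay (an actin-binding protein family) was assigned to Cla001608, the polygalacturonase assay (a pectin-cutting enzyme) to Cla000006 and the elongation factor 1-alpha assay (a carrier of tRNA to the ribosome) to Cla000553. The assignment is by annotation only, since the primers were not aligned to the transcripts and other genes with the same ID may lie outside the annotated rows used here. A zinc finger assay assigned in the same way fell on Cla002114, which had 0 counts in DAH3615-MS buds against 2 in DAH3615 buds, so an assignment can miss the gene that was assayed.
LIM domain protein forward: gaaagcagaaaagcccaccg
LIM domain protein reverse: gtcccgttcaccgtaacctt
Polygalacturonase forward: agcccaaacaccgatggaat
Polygalacturonase reverse: gtcctggtccgcaagttaca
Elongation factor 1-alpha forward: ttgagatgcaccacgaagct
Elongation factor 1-alpha reverse: gaagcaacgaaaccacgctt
The LIM domain protein Cla001608 had 1 count in DAH3615-MS buds against 3772 in DAH3615 buds. The polygalacturonase Cla000006 had 0 counts in DAH3615-MS buds against 1262 in DAH3615 buds. The elongation factor Cla000553, of a gene family used by every cell, had 26 counts in DAH3615-MS buds against 794 in DAH3615 buds. This copy was therefore 34.3-fold lower in DAH3615-MS after scaling (95% exact counting interval 23.2 to 52.8), and in flowers it stood at 16 against 1106 counts. The paper's qRT-PCR, with 3 biological replicates a group, found the lines different in buds for all 3 assays. For elongation factor 1-alpha it reports a much smaller bud reduction than the counts gave, and no detection in DAH3615-MS flowers. Whether that assay measures Cla000553 alone was not tested. The elongation factor was named after its values were seen.

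The libraries held 5778852 reads on genes for DAH3615-MS buds and 5631190 for DAH3615 buds, and 5239032 and 6315796 for DAH3615-MS and DAH3615 flowers. Reads were found on 18190 genes in DAH3615-MS buds and on 18715 in DAH3615 buds. Ratios were computed as DAH3615-MS over DAH3615 after scaling for library size, with counts under 3 raised to 3, and a gene was called when the ratio passed 4-fold. Calls, log2 ratios, rankings and list medians all use these raised counts. A fold printed with a counting interval is instead the scaled ratio of the counts as they stand, which for a gene with 1 or 2 counts is larger than the ratio with the raised count. Reaching that ratio took at least 11 counts in DAH3615 buds for a lower gene or 14 counts in DAH3615-MS buds for a higher one. Intervals cover counting error only and hold no term for variation between plants. Reads copied by PCR are not independent molecules, so the intervals may be too narrow even for counting error.

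The bud difference was large, and most of it ran in 1 direction. A total of 949 genes were lower in DAH3615-MS buds, which is 4.95 percent of the genes tested, and 64 genes were higher, which is 0.334 percent. Lower genes thus made up 93.7% of the 1013 calls. A further 1511 genes lay 2- to 4-fold apart. The other 16634 genes (86.8%) were within 2-fold, but 1632 of the genes tested had 3 counts or fewer in both bud libraries and could not show a difference. The median log2 ratio over all genes was -0.04. The counting interval lay wholly past 4-fold for 701 of the lower genes but for only 9 of the higher genes.

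**Figure D1:**
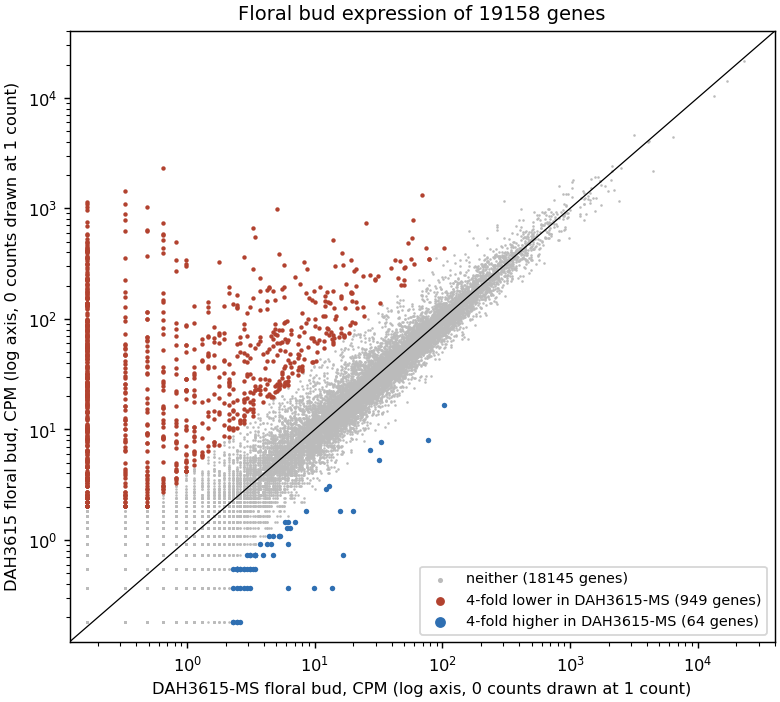
Scaled expression of the 19158 genes in DAH3615-MS floral buds (horizontal axis) and DAH3615 floral buds (vertical axis), in CPM (scaled counts per 1000000 reads) on log axes, with genes at 0 counts drawn at 1 count. The 949 lower genes fill the region above the diagonal up to levels over 1000 CPM and crowd the left edge at 0 to 3 counts, while the 64 higher genes lie close to the bulk at low levels.

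The 949 lower genes differed by a median of 16.03-fold, and the ratio passed 256-fold for 100 of them. Their median count was 4 in DAH3615-MS buds and 172 in DAH3615 buds. Together they took 0.373% of the DAH3615-MS bud library and 8.66% of the DAH3615 bud library. In DAH3615-MS buds, 463 of them had 3 counts or fewer, and 381 had 3 or fewer in the DAH3615-MS flowers as well. The loss was not confined to weak genes, since 128 of the 1092 genes with at least 1000 counts in DAH3615 buds (11.7%) were among the lower genes and 61 of those 128 had 3 counts or fewer in DAH3615-MS buds. Conversely, none of the 1078 genes with at least 1000 counts in DAH3615-MS buds was among the higher genes.

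Genes with 0 counts in 1 bud library were mostly at 0 in DAH3615-MS. A total of 227 genes had 0 counts in DAH3615-MS buds and at least 12 in DAH3615 buds, where their median was 145 counts and the highest, Cla012729, reached 6024. In the other direction there were 5 genes, with 12 to 14 counts in DAH3615-MS buds and 0 in DAH3615 buds. At the threshold itself, Cla005601 lay just inside with 104 counts in DAH3615-MS buds against 372 in DAH3615 buds, and Cla002418 lay just outside with 11 against 39.

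The 8 genes with the lowest ratios formed a group of transcripts that were abundant in fertile buds and nearly missing from sterile ones. The β-D-glucosidase Cla000032, from a family that releases glucose from glycosides and cell wall fragments, had 4 counts in DAH3615-MS buds against 12713 in DAH3615 buds. It was 3568-fold lower, with a 95% exact counting interval of 1393 to 13098. The other 7, Cla009288, Cla005213, Cla012729, Cla018671, Cla005856, Cla017027 and Cla023448, had 0 to 3 counts in DAH3615-MS buds against 5313 to 7931 in DAH3615 buds. None of these 7 had a description among the annotated rows used here. In flowers the 8 genes had 0 to 2 counts in DAH3615-MS and 2870 to 20640 in DAH3615, so the same gap was present at the later stage.

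A description was available for 1591 of the genes tested, of which 92 (5.78%) were lower and 5 (0.314%) higher in DAH3615-MS buds. Gene families were read from 23 keyword lists over these descriptions, so each list holds only the family members that fall in the annotated rows. A gene with 3 counts or fewer in both bud libraries receives a log2 ratio of -0.17 from the scaling alone, and a list median at that value means that its middle gene was hardly expressed.

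Pollen proteins included 3 lower genes among 6, with a list median log2 ratio of -2.04, and their summed level was 25.7 CPM in DAH3615-MS buds against 585 CPM in DAH3615 buds. The pollen allergen Cla002347, related to the Phl p 11 allergen of grass pollen, had 3 counts in DAH3615-MS buds against 2018 in DAH3615 buds. That is 755-fold lower (95% exact counting interval 258 to 3665). The Ole e 1-type gene Cla003043, of a family of secreted pollen wall proteins first known from olive pollen, kept 108 counts in DAH3615-MS buds against 1142 in DAH3615 buds and was 11.9-fold lower. Another Ole e 1-type gene, Cla001499, had 1 count in DAH3615-MS buds against 15 in DAH3615 buds. The list was not uniform, since Cla002155 had 45 counts in DAH3615-MS buds against 18 in DAH3615 buds, a log2 ratio of 1.16. That gene was named after its values were seen.

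Several of the described genes with the lowest ratios were enzymes that act on the cell wall, although most listed members were not called. Among pectin enzymes, 5 of 12 were lower and none was higher, 6 lay within 2-fold, and the list median was a log2 ratio of -0.83. The pectinesterase Cla001889, which removes methyl groups from pectin, had 1 count in DAH3615-MS buds against 2247 in DAH3615 buds, a log2 ratio of -9.72 with the raised count. The ratio of the counts as they stand was 2523-fold, with a wide 95% exact counting interval of 452 to 99685. The polygalacturonase Cla000006 was 472-fold lower with the raised count, and its 95% exact counting interval began at 384-fold. The invertase/pectin methylesterase inhibitor Cla000817 had 0 counts in DAH3615-MS buds against 949 in DAH3615 buds. It was 355-fold lower with the raised count, with an interval from 288-fold. Among 13 other wall-loosening enzymes 2 were lower, Cla000032 and the expansin-like Cla001151, while 10 lay within 2-fold and the median was -0.17. In a list of this size, 2 lower genes cannot be told apart from the 5.78% lower over all described genes. Expansins loosen walls without cutting them, and Cla001151 had 0 counts in DAH3615-MS buds against 175 in DAH3615 buds. The acetyl xylan esterase Cla002736, which takes acetyl groups off xylan, had 0 counts in DAH3615-MS buds against 2736 in DAH3615 buds. It was 1024-fold lower with the raised count, with an interval from 832-fold.

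Multicopper oxidases, laccases and peroxidases summed to 318 CPM in DAH3615-MS buds against 3331 CPM in DAH3615 buds, and 6 of 18 members were lower while 10 lay within 2-fold. Laccases and their relatives oxidize phenolic compounds and ascorbate in the cell wall. The multicopper oxidase Cla003119 had 0 counts in DAH3615-MS buds against 3154 in DAH3615 buds, and laccase-8 (Cla003115) had 2 against 4893. Laccase-3 (Cla003116) had 4 counts in DAH3615-MS buds against 4038 in DAH3615 buds, and the L-ascorbate oxidase-like Cla003117 had 2 against 3443. These genes are neighbours, as described later. Of the 12 genes of this list that are described as peroxidases, only Cla003196 was among the lower genes, with 1 count in DAH3615-MS buds against 12 in DAH3615 buds.

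Cytoskeletal genes split between a few large differences and a majority within 2-fold. Among 7 actin cytoskeleton genes 2 were lower, the LIM domain protein Cla001608 and the profilin Cla000908, a protein that binds actin monomers. Profilin had 16 counts in DAH3615-MS buds against 332 in DAH3615 buds and was 23.3-fold lower (95% exact counting interval 14.1 to 41.2). The formins and myosin-related genes of the list, which were not called, lay between log2 ratios of -0.06 and 0.45. Among 11 microtubule genes only the α-tubulin Cla001615 was lower, with 11 counts in DAH3615-MS buds against 392 in DAH3615 buds.

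Some lower genes of the other lists had far fewer counts in fertile flowers than in fertile buds, and others had more. Among 11 sugar transport genes 3 were lower, beside 5.78% over all described genes. The sucrose transporters Cla000359 and Cla000254, which load sucrose across the cell membrane, had 0 counts in DAH3615-MS buds against 321 and 248 in DAH3615 buds. In DAH3615 flowers they had only 24 and 17 counts. The sugar transporter Cla000966, of the N3 family that lets sugars leave cells, had 0 counts in DAH3615-MS buds against 307 in DAH3615 buds and was at least 115-fold lower, and it had 34 counts in DAH3615 flowers. A second N3-family gene, Cla002641, named after its values were seen, ran the other way with 99 counts in DAH3615-MS buds against 38 in DAH3615 buds. The lipid-transfer protein Cla002146, of a family that carries lipids outside the cell, had 1 count in DAH3615-MS buds against 326 in DAH3615 buds, and the cytochrome P450 Cla001029 had 2 against 260. In DAH3615 flowers these 2 genes had 18 and 13 counts. The other lower cytochrome P450, Cla000234, went the other way, with 4 counts in DAH3615-MS buds against 20 in DAH3615 buds and 231 against 636 in flowers. Laccase-8 also had more counts in DAH3615 flowers, at 7015.

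The isoflavone reductase-like gene Cla001620 had 2 counts in DAH3615-MS buds against 968 in DAH3615 buds and still 2 against 210 in flowers. Over all 949 lower genes, the fertile line itself was 2-fold or more lower in flowers than in buds for 208, 2-fold or more higher for 67, and within 2-fold for 674. These within-line values share the DAH3615 bud library with the bud comparison and are given as a description.

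Signalling and regulatory lists held few called genes, near the 5.78% lower over all described genes. Among 51 receptor-like kinases, which sense signals at the cell surface, 4 were lower and none higher, and the median log2 ratio of the list was 0.07. Cla002735 had 0 counts in DAH3615-MS buds against 301 in DAH3615 buds, while Cla001554 kept 98 counts in DAH3615-MS buds against 883 in DAH3615 buds. Cla002735 is a very short gene model, between positions 460765 and 460947 of chromosome 7, and whether it encodes a whole kinase was not examined. Among 26 hormone genes only the auxin-induced SAUR-like Cla001873 was lower, with 121 counts in DAH3615-MS buds against 787 in DAH3615 buds. It was 7.30-fold lower (95% exact counting interval 6.02 to 8.92), and the gap was wider in flowers, at 14 against 1187 counts. Among 39 genes of other transcription factor families the NAC domain genes Cla003039 and Cla002170 were lower, the second with 20 counts in DAH3615-MS buds against 72 in DAH3615 buds and only just past 4-fold. Its log2 ratio moved to -1.89 with library totals as the scaling.

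Smaller lists also held few called genes, beside 5.78% lower and 0.314% higher over all described genes. In lists this small, counts of 1 or 2 cannot be told apart from those shares. Among 10 arabinogalactan, extensin and GPI-anchored proteins, which sit at the outer face of the cell, 2 were lower, and the GPI-anchored Cla002276 had 0 counts in DAH3615-MS buds against 125 in DAH3615 buds. Among 16 proteases 2 were lower, led by the aspartyl protease Cla002175 with 23 counts in DAH3615-MS buds against 379 in DAH3615 buds. The carboxyl-terminal proteinase Cla000818 of that list was instead higher, at 19 against 3 counts. Lower genes also numbered 2 of 20 for lipid, cutin and wax synthesis, 2 of 15 for cytochrome P450, 1 of 12 for heat shock and LEA proteins, 1 of 12 for cytosolic ribosomal proteins and 1 of 8 for flavonoid enzymes. None of these 5 lists held a higher gene.

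Lists of growth, division and photosynthesis held no called gene. With 5.78% of described genes lower, lists of this size would hold few calls, so the absence of calls is near the background. The 20 genes for the cell cycle, histones and DNA replication, which are most active in dividing tissue, had a median log2 ratio of 0.16 and 19 of them lay within 2-fold. Their summed level was 813 CPM in DAH3615-MS buds against 708 CPM in DAH3615 buds. The cyclin-like Cla002856 had 1767 counts in DAH3615-MS buds against 1456 in DAH3615 buds, a log2 ratio of 0.11. All 9 photosynthesis genes and all 9 plastid-type ribosomal proteins lay within 2-fold. Among the first, the oxygen-evolving enhancer protein Cla001790 had 3902 counts in DAH3615-MS buds against 2972 in DAH3615 buds.

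Of 50 pentatricopeptide repeat genes, which bind RNA in plastids and mitochondria, 43 lay within 2-fold and the median log2 ratio was 0.25. The 7 calcium sensors also held no called gene, and the kinase Cla003149 of that list had 1378 counts in DAH3615-MS buds against 1093 in DAH3615 buds. The MADS-box gene Cla000691, of the family that sets floral organ identity, had 3019 counts in DAH3615-MS buds against 2060 in DAH3615 buds, a log2 ratio of 0.38. The other 2 MADS-box genes had 10 counts or fewer in either bud library. Scaling by library totals raised every bud log2 ratio by 0.13, which moves the median of all genes to 0.09 and leaves each of these lists without a called gene.

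**Figure D2:**
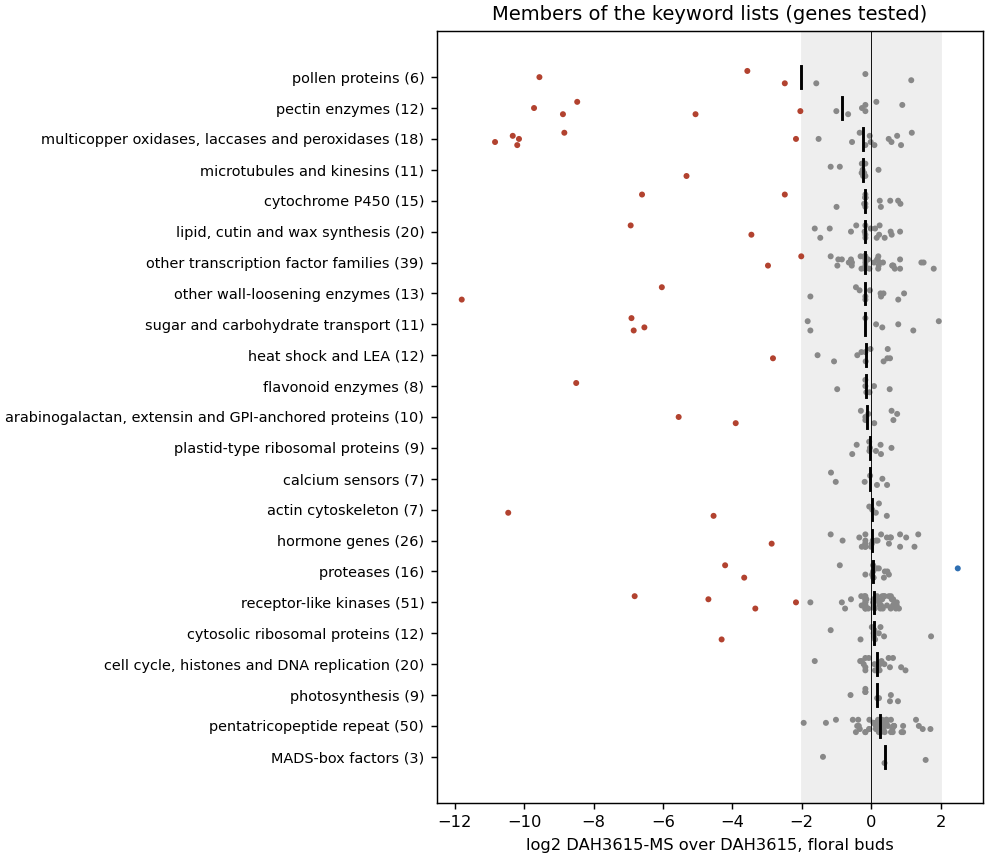
Log2 ratio of DAH3615-MS over DAH3615 floral buds for each member of the 23 keyword lists (points; red, 4-fold lower; blue, 4-fold higher; grey, neither), with the list median as a black bar and the number of genes tested in parentheses. Pollen proteins have the lowest median at -2.04, the red points of most other lists stand far from medians near 0, and the cell cycle, photosynthesis, plastid-type ribosomal, pentatricopeptide repeat, calcium sensor and MADS-box lists have grey points only.

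The 64 higher genes were weak and modest in size. Their median difference was 4.73-fold, and 61 of them lay under 16-fold. Their summed counts were 3474 in DAH3615-MS buds against 502 in DAH3615 buds, and 51 of them stayed under 50 counts in both libraries. The gene just inside the threshold was Cla005324, with 27 counts in DAH3615-MS buds against 6 in DAH3615 buds, and the gene just outside was Cla020650, with 13 against 3. The highest log2 ratio with the raised counts was 4.64 for Cla021554, with 84 counts in DAH3615-MS buds against 2 in DAH3615 buds. The ratio of its counts as they stand was 37.4-fold, with a 95% exact counting interval of 10.04 to 314. Cla022834 had 61 against 2 counts, and Cla006423 had 122 against 10. The best-counted strong case was Cla005822, which had 474 counts in DAH3615-MS buds against 44 in DAH3615 buds and was 9.60-fold higher (95% exact counting interval 7.04 to 13.4). None of these 4 genes had a description.

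The 5 higher genes with a description rested on few reads. They were Cla000818, the nuclear transcription factor Y subunit A gene Cla000827, the trichome birefringence-like gene Cla002432, the ribosomal RNA methyltransferase gene Cla001887 and the BTB/POZ domain gene Cla001792. Nuclear factor Y is a DNA-binding complex, trichome birefringence-like proteins acetylate wall polysaccharides, and BTB/POZ proteins often serve as adaptors for protein degradation. The 5 genes had 15 to 38 counts in DAH3615-MS buds against 2 to 8 in DAH3615 buds. Just under the threshold, the homeobox leucine zipper gene Cla002419 had 94 counts in DAH3615-MS buds against 24 in DAH3615 buds, and the light regulated gene Cla001482 had 90 against 23. Both had a log2 ratio of 1.80.

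Flowers of the 2 lines, which share no library with the buds, were used to see which bud differences were still present at the later stage. Over all 19205 genes tested in flowers, 865 (4.5 percent) were 4-fold lower and 51 (0.266 percent) were 4-fold higher in DAH3615-MS. Of the 949 genes lower in DAH3615-MS buds, 680 were also 4-fold lower in DAH3615-MS flowers, which is 71.7%. A further 90 were lower by 2- to 4-fold, 88 (9.27%) were within 2-fold, 15 ran the other way by over 2-fold, and 76 had under 12 counts in both flower libraries. Of the 64 higher genes, 1 was also 4-fold higher in flowers, 19 were higher by 2- to 4-fold and 23 (35.9%) were within 2-fold. Of the rest, 1 ran the other way and 20 had under 12 counts in both flowers. These shares count genes of 1 library a condition and carry no measure of variation between plants.

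**Figure D3:**
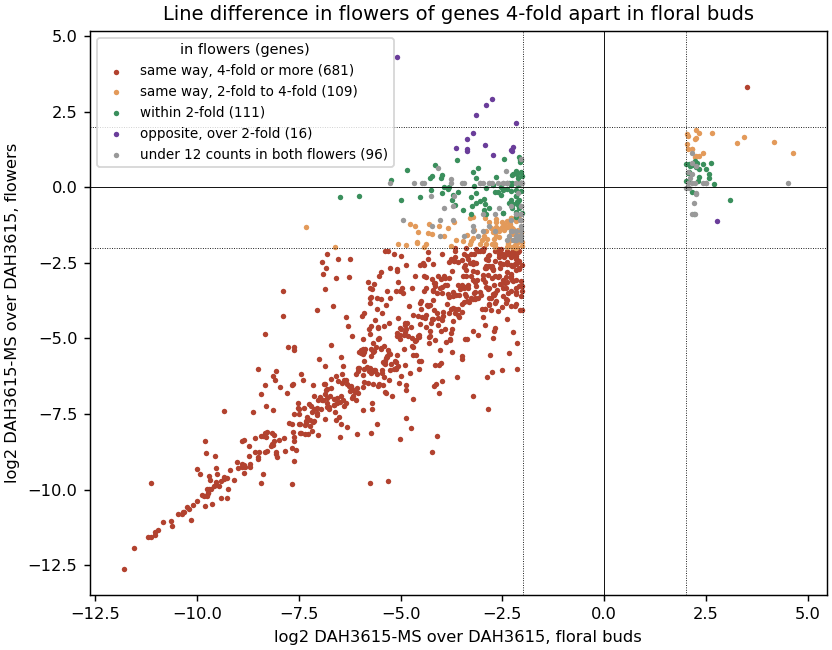
Log2 ratio of DAH3615-MS over DAH3615 in floral buds (horizontal axis) and in flowers (vertical axis) for the 1013 genes called in buds, coloured by their flower difference, with dotted lines at 4-fold. The lower genes run along the diagonal down to -11.80 in buds, and the 111 green points within 2-fold in flowers lie near the horizontal line at 0 on both sides.

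The 680 genes that stayed lower had wider bud gaps in the median than those within 2-fold in flowers, although the sets overlapped. The median log2 ratio of the 680 was -5.04 in buds and -4.94 in flowers. The 88 genes within 2-fold in flowers had medians of -2.51 in buds and -0.12 in flowers. The median level of the 680 was 0.488 CPM in DAH3615-MS buds against 47.1 CPM in DAH3615 buds, and 0.369 CPM in DAH3615-MS flowers against 49.5 CPM in DAH3615 flowers. Their level in DAH3615-MS buds is that of 3 counts, so a change between the DAH3615-MS organs was mostly not detectable at this depth.

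For the 88 genes that were lower in sterile buds but close in flowers, the choice itself fixes a higher ratio of flower over bud in DAH3615-MS than in DAH3615. Their median log2 ratio of flower over bud was 2.04 in DAH3615-MS (quartiles 1.15 and 2.95) and -0.56 in DAH3615 (quartiles -1.41 and 0.16). Only the DAH3615-MS organs differed by 2-fold for 43 of these genes, only the DAH3615 organs for 15, both for 29 and neither for 1. Each of these within-line ratios uses a bud library of the bud comparison, so they are not independent of it. The genes were chosen by those same values, so the split is a description of the choice. The cause of the change was not tested.

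Single genes of this kind included transporters. The cation/H+ antiporter Cla001748, of a family that exchanges ions across membranes, had 6 counts in DAH3615-MS buds against 476 in DAH3615 buds and was 89.1-fold lower (95% exact counting interval 40.6 to 244). In flowers it had 72 counts in DAH3615-MS against 98 in DAH3615. Cla001749 has the same description and strand, and starts at position 15070413 of chromosome 7, just past the end of Cla001748 at 15070362. It had 3 against 174 counts in buds and 21 against 28 in flowers. Whether these gene models are parts of a single gene was not tested, so they may not be separate cases. Cla001355, described as NADH dehydrogenase, a respiratory chain enzyme, had 8 against 226 counts in buds and 73 against 107 in flowers. The MATE efflux gene Cla003109, of a family that exports organic compounds, had 3 counts in DAH3615-MS buds against 61 in DAH3615 buds, and 47 against 64 in flowers. Its close relative Cla003110 had 8 against 63 counts in buds and 48 against 60 in flowers.

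The best-counted gene of the set was Cla016180, named with Cla018391 after the values were seen. It had 423 counts in DAH3615-MS buds against 7182 in DAH3615 buds, or 19.1-fold lower (95% exact counting interval 17.3 to 21.1), and 2722 against 3197 counts in flowers. Cla018391 had 58 counts in DAH3615-MS buds against 810 in DAH3615 buds, and 664 against 543 in flowers. Both genes lack a description. For both, the sterile bud was the lowest of the 4 libraries.

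The higher genes were chosen for a low value in the fertile bud. For the 23 higher genes within 2-fold in flowers, the median log2 ratio of flower over bud was 1.10 in DAH3615-MS and 3.04 in DAH3615. Their median level was 4.72 CPM in DAH3615-MS buds against 1.10 CPM in DAH3615 buds, and 8.48 CPM in DAH3615-MS flowers against 5.76 CPM in DAH3615 flowers. The lowest median in the fertile bud and the closeness of the flowers follow from how these genes were chosen. Over all 64 higher genes, the DAH3615 flower was 2-fold or more above the DAH3615 bud for 42 genes and 2-fold or more below it for none. A fall could not be seen for the 30 of them with 3 counts or fewer in DAH3615 buds, and the other 34 were also chosen for a low DAH3615 bud value, so these counts are a description of the choice. In DAH3615-MS the flower was 2-fold above the bud for 23 and 2-fold below it for 16.

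Single genes differed in what the flowers did. Cla010201, the higher gene with the most reads and named after its values were seen, had 633 counts in DAH3615-MS buds against 91 in DAH3615 buds, and 1726 against 1087 in flowers. Cla013063 had 96 counts in DAH3615-MS buds against 10 in DAH3615 buds, and 162 against 235 in flowers. Cla019405 had 38 counts in DAH3615-MS buds against 5 in DAH3615 buds, while flowers reversed the order with 77 against 181. Others stayed apart. Cla019870, the 1 gene also 4-fold higher in flowers, had 38 against 2 counts in buds and 91 against 10 in flowers. Cla004807 was nearly confined to the sterile bud, with 103 counts in DAH3615-MS buds against 4 in DAH3615 buds and 1 in each flower library.

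**Figure D4:**
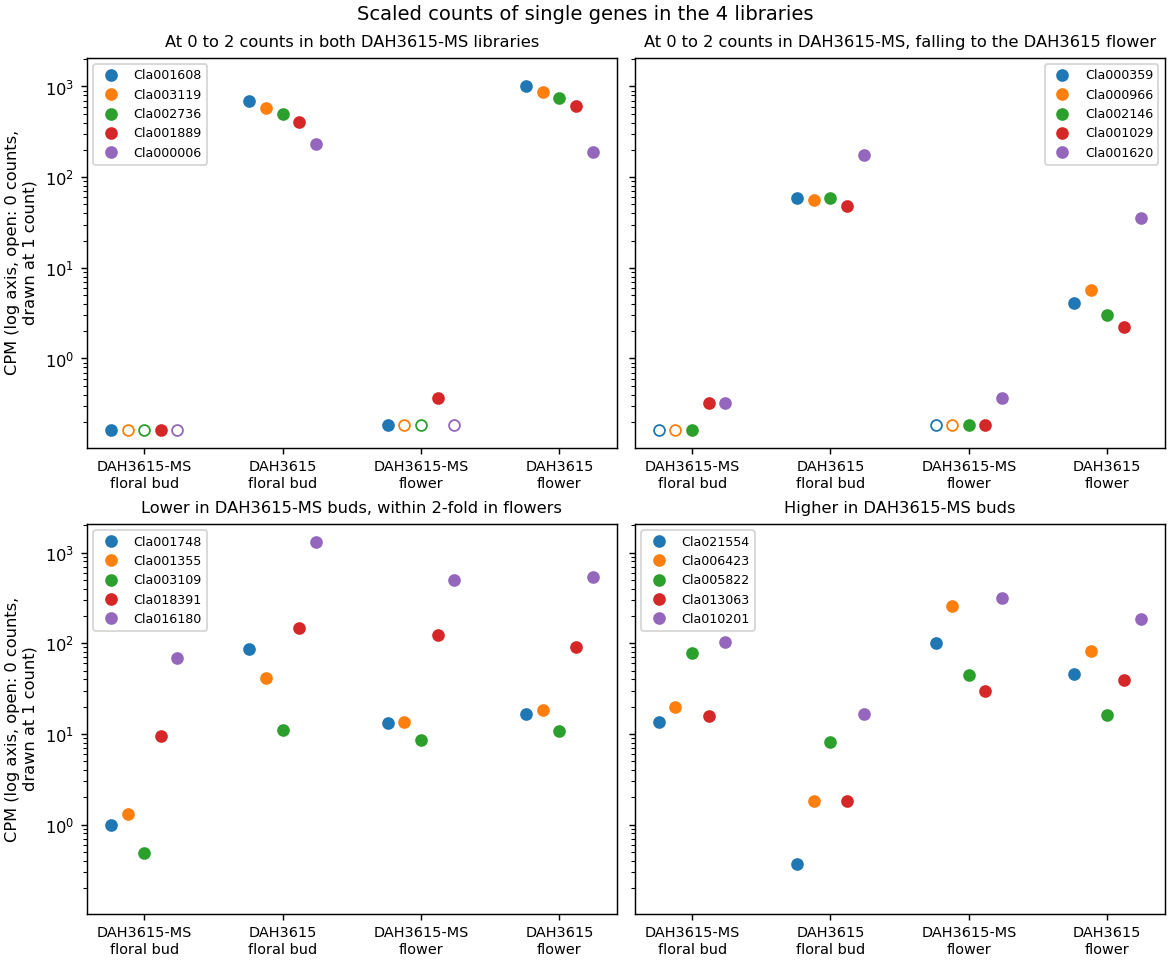
Scaled counts (CPM, log axis) of 20 genes in the 4 libraries, 5 genes a panel, with open symbols for 0 counts drawn at 1 count. Cla000006 in the upper left panel is at 0 in both DAH3615-MS libraries, Cla000359 in the upper right panel has 321 counts in DAH3615 buds and 24 in DAH3615 flowers, Cla016180 in the lower left panel is lowest in DAH3615-MS buds, and Cla010201 in the lower right panel is lowest in DAH3615 buds.

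**Figure D5:**
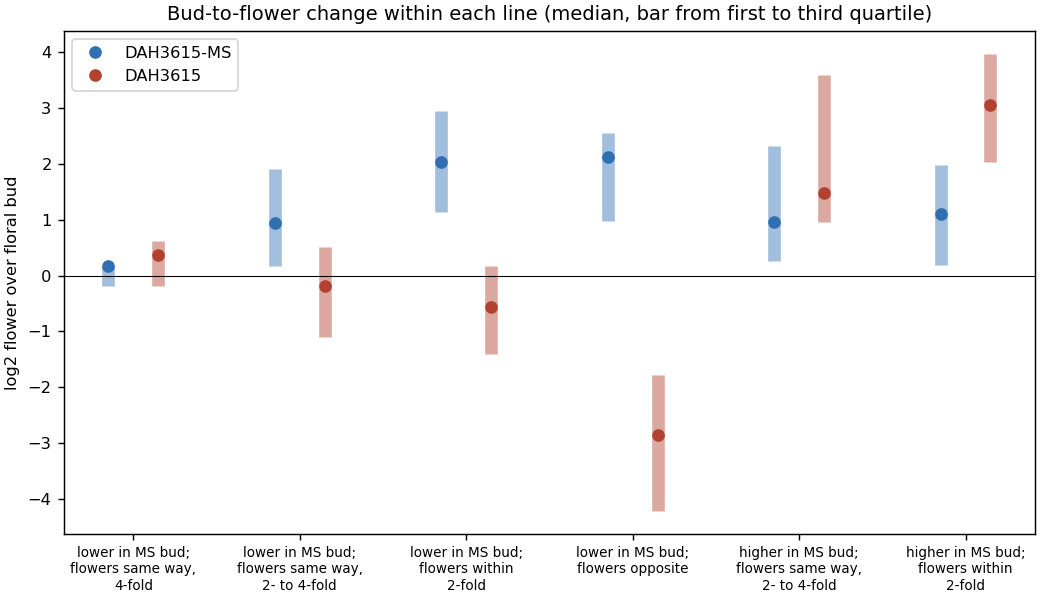
Log2 ratio of flower over floral bud within DAH3615-MS (blue) and within DAH3615 (red) for groups of genes called in buds, sorted by what the flowers did; points are medians over genes and bars run between the quartiles. Genes lower in sterile buds but within 2-fold in flowers have a median of 2.04 in DAH3615-MS and -0.56 in DAH3615, and genes higher in sterile buds but within 2-fold in flowers have 1.10 and 3.04.

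Some lower genes lay side by side in the genome. In 16 places 3 or more neighbouring tested genes were all lower, 54 genes in total. The longest run on chromosome 2, between positions 34364219 and 34385090 of the watermelon genome version 1, held the laccase and multicopper oxidase genes Cla003115 to Cla003119. Its 5 genes summed to 9 counts in DAH3615-MS buds against 16755 in DAH3615 buds. Another run of 5 genes on chromosome 11, Cla016481 to Cla016486 between positions 21793813 and 21827626, summed to 1 against 2263 counts.

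Pathogenesis-related protein 1 genes, of a family of small secreted proteins, formed a run on chromosome 2. Cla001625, Cla001626 and Cla001627 together had 1 count in DAH3615-MS buds against 3131 in DAH3615 buds. On chromosome 7, Cla002734, Cla002735 and Cla002736 together had 0 against 3431 counts. They are acetyl xylan esterases and the very short gene model described as a receptor kinase that is named above. The MATE genes Cla003109 and Cla003110 also belonged to such a run. Runs were picked out after the values were seen. Reads shared between near-identical copies were not examined, so the split of counts within a run is uncertain. Over chromosomes, the lower genes made up between 3.83% (chromosome 7) and 6.79% (the unplaced genes collected as chromosome 0) of the genes tested.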

How the data were processed

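RNA from buds and open flowers of both lines was sequenced, 4 libraries in all. The deposited values are whole-number read counts per gene, without normalization. The submitters' processing notes name Trimmomatic, Bowtie2, TopHat2 and HTSeq, and the study used the watermelon genome version 1. Tool versions and the strand setting of the counting are not given in the sources used here. The table holds 0 columns of other samples.

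Counts were scaled by TMM factors (0.972 to 1.06 for the bud libraries) from edgeR 4.0.16 under R 4.3.3. Ratios and exact binomial counting intervals (95%) came from scipy 1.17.1 and numpy 2.4.6 with pandas 2.3.3 in Python 3.11.15. The fold rule was tried on simulated counts, with changes placed only in genes expected at 50 or more counts. Changes in weaker genes, which make up most of the higher genes, were not simulated. A floor of 3 counts per library equals 0.488 CPM in DAH3615-MS buds and 0.548 CPM in DAH3615 buds. Folds against 0 counts use this floor, and their counting intervals can reach lower. No filter on low counts was applied. Genes without any count in the bud libraries (4282) were left out.

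Descriptions came from 1999 rows of the study's annotation table, matched by gene ID. The columns of the authors' own tests in that table were not used. The genes compared, lists and tests were chosen with earlier results of these data known. Genes were named by a rule. It takes the 8 lowest and 8 highest ratios, the 10 lowest and 10 highest described genes and up to 3 called members of each list (the member with most counts where none was called). It adds up to 5 described genes a direction that were within 2-fold in flowers, up to 5 a direction that were called in opposite directions, and the genes on either side of the threshold. Alternatives varied the scaling, the floor, the filter, the fold and the counting interval.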

Additional observations from a re-analysis of the deposited data

Results flagged for a closer look

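For 5 genes the 2 lines were 4-fold apart in opposite directions in buds and in flowers. The difference between organs was not tested, since each condition has 1 library. All 5 were lower in DAH3615-MS buds and higher in DAH3615-MS flowers, and none has a description. Cla022857 had 43 counts in DAH3615-MS buds against 1299 in DAH3615 buds, a log2 ratio of -5.08, and 91 against 5 in flowers, a log2 ratio of 4.31. Cla020593 had 118 against 933 counts in buds (log2 ratio -3.15) and 533 against 112 in flowers (2.37). Both rest on over 100 reads in at least 1 bud library. The other 3 rest on few reads. Cla010370 had 0 against 20 counts in buds (-2.90) and 18 against 3 in flowers (2.71). Cla010186 had 3 against 18 counts in buds (-2.75) and 35 against 5 in flowers (2.93). Cla008369 had 3 against 12 counts in buds (-2.17) and 12 against 3 in flowers (2.12).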

How the results depend on the processing

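The lower genes held under most settings. The count of higher genes stayed between 61 and 77 under the other scalings but moved with the floor, filter, fold and counting interval. The count of 949 lower genes lay between 634 (8-fold) and 1176 (a floor of 1 count) under all alternatives but the 2-fold threshold, which gave 1859. The 680 that were also lower in flowers ranged between 569 and 767. The 64 higher genes became 168 with a floor of 1 count, 13 with a floor of 10, 13 with at least 50 counts in either bud library, 665 at 2-fold, 7 at 8-fold and 9 when the 95% counting interval had to pass 4-fold. The 1 higher gene also higher in flowers became 3 with library totals, 4 with upper quartile factors, 14 with a floor of 1 count, 0 with a floor of 10 and 0 with at least 50 counts. The 23 higher genes within 2-fold in flowers became 68 with a floor of 1 count, 4 with a floor of 10 and 6 with at least 50 counts. DESeq2 1.42.0 size factors gave 948 lower and 64 higher genes. Among named genes, 317 of the recomputed ratios kept their direction and side of the threshold, 5 crossed outward, 6 crossed inward and 0 reversed. List counts moved in 4 of 184 recomputations. Counting each run of neighbours once (911 lower genes) and leaving out chromosome 0 (930) were chosen after seeing the data. No replicated or blocked test of the bud difference alone was possible because each condition has 1 library. The paper fitted line and organ together over the 4 libraries, which gives 1 line effect for both organs. With 1 library a condition, variation between plants is unknown from the sequencing data, and bud length, stage and line cannot be told apart.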
